A study of Mus musculus with 12 samples.

Results

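The genes described here are 9 surface and progenitor markers that are used to define mesenchymal stem or stromal cells, in the endometrium and elsewhere: Susd2, Nt5e, Thy1, Eng, Cd44, Alcam, Nes, Lepr and Ly6a. They were taken by name from the deposited table of raw counts, which lists 47729 genes, and all 9 were found in it. Uterine mesenchymal cells of healthy, cycling female mice were sorted on a flow cytometer and their RNA was sequenced in bulk. The mice carry eGFP under Pdgfrb on a bacterial artificial chromosome (Pdgfrb-BAC-eGFP). GFPtotal cells (titled Naive) are all GFP-positive cells, a mixture of GFPhigh perivascular cells and GFPlow stromal fibroblasts. GFPlow cells (titled Stromal, and called GFPdim in the sample labels) are the dim part alone. Each group has 6 libraries, and the series names 12 mice. The sources used here do not give the mixing share or the cycle stage and age of the mice, and both groups come from the same reporter strain with no treatment. GFPhigh cells were not sequenced alone, so a marker of perivascular cells shows here as a transcript higher in the mixture than in its GFPlow part.

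Mesenchymal stem cells are defined in culture by a panel of surface proteins rather than by any single one. In the human endometrium, cells with clonogenic and multipotent behaviour lie around vessels, and they have been sorted with antibodies to PDGFRB and MCAM or to SUSD2, a single-pass membrane protein with sushi domains. The general panel adds THY1 (CD90), NT5E (CD73) and ENG (CD105), and often CD44 and ALCAM (CD166). In mice, Ly6a (Sca-1), Nes and Lepr have been used to mark stromal or perivascular progenitors, with Ly6a also known as a target of interferon.

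Total counts were 12631266 to 14950639 in GFPtotal libraries and 14339804 to 18425596 in GFPlow libraries. Mitochondrial genes took 32.4% to 49.0% of all counts. On the first principal component of all genes tested, which held 34.0% of the variance, GFPtotal 3, 4 and 5 lay at scores of 102 to 107, GFPtotal 1, 2 and 6 at −3.82 to 6.66 and GFPlow libraries at −64.6 to −31.1. The header of the deposited file of GFPlow 6 names an alignment N8, whereas its title gives S6. The letter N is that of the Naive titles, but these run from N1 to N6 and none is N8. In GFPlow 6 the 10 pericyte markers summed to 18.9 CPM (counts in 1000000 of the scaled library size). This was among 8.87 to 19.9 CPM in the other GFPlow libraries and far from the 923 to 1628 CPM of GFPtotal libraries. In GFPtotal this sum was mostly Rgs5 (mean 782 CPM) and Abcc9 (mean 354 CPM). Some other sums of GFPlow 6 lay above those of GFPlow 1 to 5. Its 8 smooth muscle markers reached 68.1 CPM, against 21.2 to 40.3 CPM, and its 9 fibroblast markers 23584 CPM, against 15632 to 21254 CPM. Its endothelial, leukocyte and epithelial sums lay within their ranges. Results are given with and without GFPtotal 3, 4 and 5 and GFPlow 6 where they move. Defining markers of the fibroblast lineage were abundant as a sum in both groups (9 markers summing to 23687 to 40287 CPM in GFPtotal, against 15632 to 23584 CPM in GFPlow). Most of this sum was Col1a1, Col1a2 and Col3a1. Leukocyte markers were at or near 0 (10 markers summing to 1.21 to 4.86 CPM in GFPtotal libraries and 0.904 to 10.04 CPM in GFPlow libraries). Of 10 endothelial markers, Cldn5 had 0 counts in all libraries, Pecam1 averaged 0.794 CPM in GFPtotal, against 0.183 CPM in GFPlow, and the sum was 34.1 to 61.6 CPM over GFPtotal libraries and 39.6 to 60.2 CPM over GFPlow libraries, carried mostly by Cdh5, Kdr, Tek and Emcn.

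Of the 9 markers, 2 were higher in GFPtotal than in GFPlow cells and 0 were lower at an adjusted p below 0.05. These were Susd2, the endometrial marker, with a 2.35-fold difference, and Ly6a, with an 8.77-fold difference. Neither Thy1, Nt5e nor Eng, the classical trio, passed the test, and nor did Cd44, Alcam, Nes or Lepr. Over all 14523 genes tested, 4.55% were called higher and 0.854% lower, so that 2 higher genes among 9 are more than that share, on a small number. The 9 markers were chosen with earlier results of these data known. The test was edgeR's quasi-likelihood F test across all genes, with Benjamini-Hochberg adjustment. At an unadjusted p below 0.05, which 12.8% of genes passed upwards and 7.07% downwards, the counts were again 2 higher and 0 lower, as they were at an adjusted p below 0.05 with DESeq2, which called 7.13% of genes higher and 2.4% lower, and with limma-voom, which called 4.93% and 1.88%. The median log2 fold change was 0.54 over the 9 markers and 0.00 over all genes tested. Fewer cells of a type and less RNA per cell cannot be told apart in these bulk samples. Since the labels do not say which mouse or mice gave which library, a p-value here speaks only to the spread among these libraries, which may be technical.

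**Figure D1:**
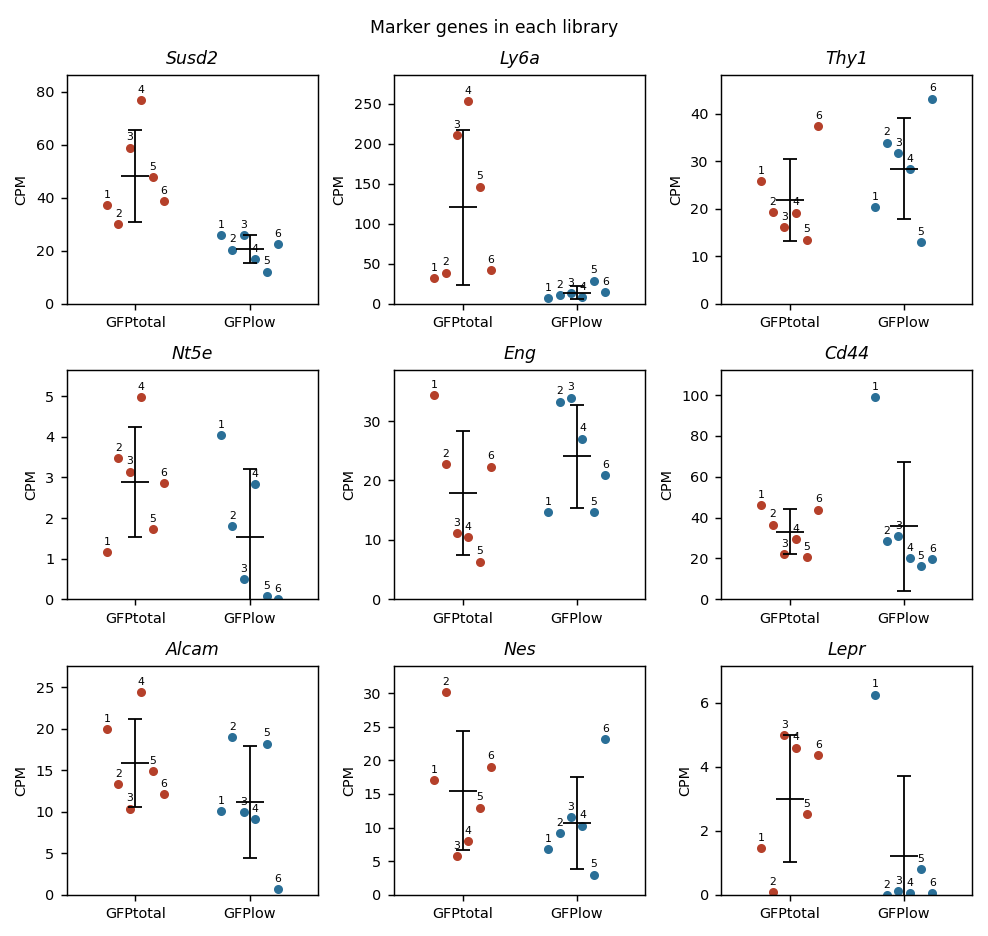
CPM of each marker gene (y axis, CPM on TMM-scaled library sizes) in each GFPtotal and GFPlow library, numbered by replicate; horizontal marks are means and error bars SD (n = 6 each), cut off at 0 where they would fall below it. The groups do not overlap for Susd2 and Ly6a, and overlap for the other 7 genes.

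Susd2 (ENSMUSG00000006342, GRCm38 chromosome 10, 75636619 to 75644008, minus strand) was higher in every GFPtotal library than in any GFPlow library. Its level was 37.1, 30.0, 59.0, 76.9, 47.8 and 38.7 CPM in GFPtotal 1 to 6, against 25.8, 20.4, 25.8, 16.8, 12.2 and 22.4 CPM in GFPlow 1 to 6. The highest GFPtotal values lay in libraries 3, 4 and 5, and the nearest values across the groups were those of GFPtotal 2 and of GFPlow 1 and 3. Such a separation upwards was seen for 2.86% of all genes tested. The means were 48.2 ± 17.2 CPM in GFPtotal, against 20.6 ± 5.35 CPM in GFPlow (SD, n = 6 each). Fitted, the difference was 1.23 on the log2 scale (SE 0.25, 95% interval 0.70 to 1.76, edgeR adjusted p = 0.0077). The call held without any single library (log2 fold change 1.05 to 1.33, highest edgeR adjusted p = 0.0273), and without GFPlow 6 the value was 1.25 (adjusted p = 0.0162).

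With GFPtotal 3, 4 and 5 left out together, Susd2 was no longer called (log2 fold change 0.76, edgeR adjusted p = 0.210), in a fit in which 1.56% of genes were called higher. The remaining GFPtotal libraries, at 30.0 to 38.7 CPM, still lay above all GFPlow libraries, as they did for 5.13% of genes tested. Several other measures divided the GFPtotal libraries in the same way. Summed pericyte markers, mostly Rgs5 and Abcc9, reached 1380 to 1628 CPM in libraries 3, 4 and 5 of GFPtotal, and 923 to 1242 CPM in its libraries 1, 2 and 6. Of these markers Mcam followed that division, whereas Cspg4 was higher in GFPtotal 6 (11.8 CPM) than in GFPtotal 3 and 5 (7.72 and 8.32 CPM). Pdgfrb did not follow it either, at 140 CPM in GFPtotal 6 and 87.8 CPM in GFPtotal 3. Itga4 and Vcam1, described below, were lowest of the GFPtotal libraries in GFPtotal 4. Of the 8 smooth muscle markers, 6 were tested and 4 were higher in GFPtotal than in GFPlow, where 4.55% of all genes tested were higher. The 8 summed to 288 to 375 CPM in libraries 3, 4 and 5 of GFPtotal and to 161 to 202 CPM in its libraries 1, 2 and 6. In GFPlow they summed to 21.2 to 40.3 CPM in libraries 1 to 5 and to 68.1 CPM in library 6. The fibroblast sum, mostly Col1a1, Col1a2 and Col3a1, went the other way. It was 23687 to 27617 CPM in libraries 3, 4 and 5 and 37859 to 40287 CPM in libraries 1, 2 and 6. Dcn, the next most abundant fibroblast marker, stayed at 2219 to 2467 CPM over all GFPtotal libraries. The mitochondrial share was also lower in libraries 3, 4 and 5, at 32.4% to 40.5%, against 45.3% to 49.0% in libraries 1, 2 and 6. The part of these in the Susd2 values was not tested.

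The genes whose course over the 12 libraries was most like that of Susd2 were Enpep, Rarres2 and Foxp1. Likeness was measured as the root mean square difference of mean-centred log2 CPM, which was 0.24 for Enpep, 0.24 for Rarres2 and 0.27 for Foxp1, where the deviation of Susd2 from its own mean was 0.73. Enpep, which encodes the membrane peptidase aminopeptidase A, stood at 38.0 ± 8.97 CPM in GFPtotal, against 15.4 ± 3.63 CPM in GFPlow (± SD of 6 libraries each; log2 fold change 1.30, edgeR adjusted p = 0.00214). Foxp1, a forkhead transcription factor gene, had a log2 fold change of 1.47 (edgeR adjusted p = 0.00317), and Rarres2, the chemerin gene, one of 1.01 that did not pass (adjusted p = 0.0549). Without GFPtotal 3, 4 and 5 neither Enpep (1.06, edgeR adjusted p = 0.0607) nor Foxp1 (0.82, adjusted p = 0.102) was called.

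Ly6a (ENSMUSG00000075602, chromosome 15, 74994877 to 74998031, minus strand) encodes Sca-1, a small protein held in the membrane by a glycosylphosphatidylinositol (GPI) anchor. Its gene lies among related genes, and its counts depend on how reads of these are told apart. The coding parts of its first 2 coding exons are shown beside those of its relative Ly6c1, which lies on the same strand of chromosome 15, because both genes were higher in GFPtotal. Sequences are from GENCODE M21 transcripts on GRCm38, 5′ to 3′ on the minus strand, and capitals mark bases that differ between the genes.
Ly6a, first coding exon, chr15:74997535-74997604: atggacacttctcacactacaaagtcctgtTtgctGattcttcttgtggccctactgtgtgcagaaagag
Ly6c1, first coding exon, chr15:75048442-75048511: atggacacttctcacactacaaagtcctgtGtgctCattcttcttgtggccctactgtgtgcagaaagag
Ly6a, second coding exon, chr15:74996452-74996568: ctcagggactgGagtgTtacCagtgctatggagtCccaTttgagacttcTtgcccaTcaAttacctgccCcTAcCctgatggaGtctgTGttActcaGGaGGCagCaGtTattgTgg
Ly6c1, second coding exon, chr15:75047353-75047469: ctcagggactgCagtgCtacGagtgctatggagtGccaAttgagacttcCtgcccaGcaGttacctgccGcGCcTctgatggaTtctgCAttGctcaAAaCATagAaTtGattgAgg

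The first coding exons differed at 2 of 70 bases and shared an identical run of 34, whereas the second differed at 25 of 117 bases with no identical run above 13. Of the stretches of 50 bases in Ly6a coding transcripts, 19.0% also occurred in transcripts of another gene. Of these 246 stretches, 195 were found in Ly6c1, 31 in Ly6i, 20 in the pseudogene I830127L07Rik and 3 in Ly6c2. Since the identical runs of the exons shown do not reach 50 bases, none of the 195 lies wholly within either of them. That share was 2.67% for Lepr, 0.321% for Eng, 0.121% for Alcam and 0 for the other 5 markers. The deposited counts required a mapping quality of at least 10, so reads that fit both genes equally may be missing from Ly6a, and its level is uncertain to that extent. In GFPtotal, Ly6c1 had 258 counts, Ly6i 12, Ly6c2 8 and I830127L07Rik 0, against 10641 for Ly6a. In GFPlow, Ly6c1 had 11 counts, Ly6i, Ly6c2 and I830127L07Rik had 0, and Ly6a had 1315.

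Ly6a had the largest fitted fold change of the 9 markers in the edgeR fit of all 12 libraries without a covariate. Lepr, a scarce gene that was not called in that fit, had a larger one in 3 alternative fits. These were limma-voom (3.19 against 2.88 on the log2 scale), edgeR with a replicate block (3.51 against 2.77) and edgeR without GFPlow 1 (3.86 against 2.99), the last of which called Lepr. The level of Ly6a was 32.0, 38.8, 211, 253, 147 and 41.9 CPM in GFPtotal 1 to 6, against 6.89, 10.6, 13.3, 8.32, 28.9 and 14.6 CPM in GFPlow 1 to 6. GFPtotal 3, 4 and 5 lay at 147 CPM or more, the other GFPtotal libraries at 41.9 CPM or less, and all of them above GFPlow 5, the highest GFPlow library. The means were 121 ± 97.1 CPM in GFPtotal, against 13.8 ± 7.96 CPM in GFPlow (SD, n = 6 each). This gave a log2 fold change of 3.13 (SE 0.61, 95% interval 1.81 to 4.46, edgeR adjusted p = 0.0105). The call held without any single library (log2 fold change 2.77 to 3.48, highest edgeR adjusted p = 0.0292), and without GFPlow 6 the value was 3.15 (adjusted p = 0.0266).

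Without GFPtotal 3, 4 and 5 the Ly6a difference was 1.43 on the log2 scale and just missed the threshold (edgeR adjusted p = 0.0520). Interferon-response genes moved with Ly6a over these libraries. The 10 genes of that list, which was chosen with earlier results of these data known, had sums of 1049 to 1232 CPM in GFPtotal 3, 4 and 5, of 133 to 206 CPM in GFPtotal 1, 2 and 6 and of 54.8 to 104 CPM in GFPlow. Of the 9 genes that could be tested, 6 were higher and 0 lower, with a median log2 fold change of 3.16. Among all genes tested, 4.55% were higher and 0.854% lower. DESeq2 called 8 of the list higher and limma-voom 3, where they called 7.13% and 4.93% of all genes higher. With the list so chosen, these counts are not an independent result. The part of the interferon-response genes in the Ly6a difference was not tested.

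**Figure D2:**
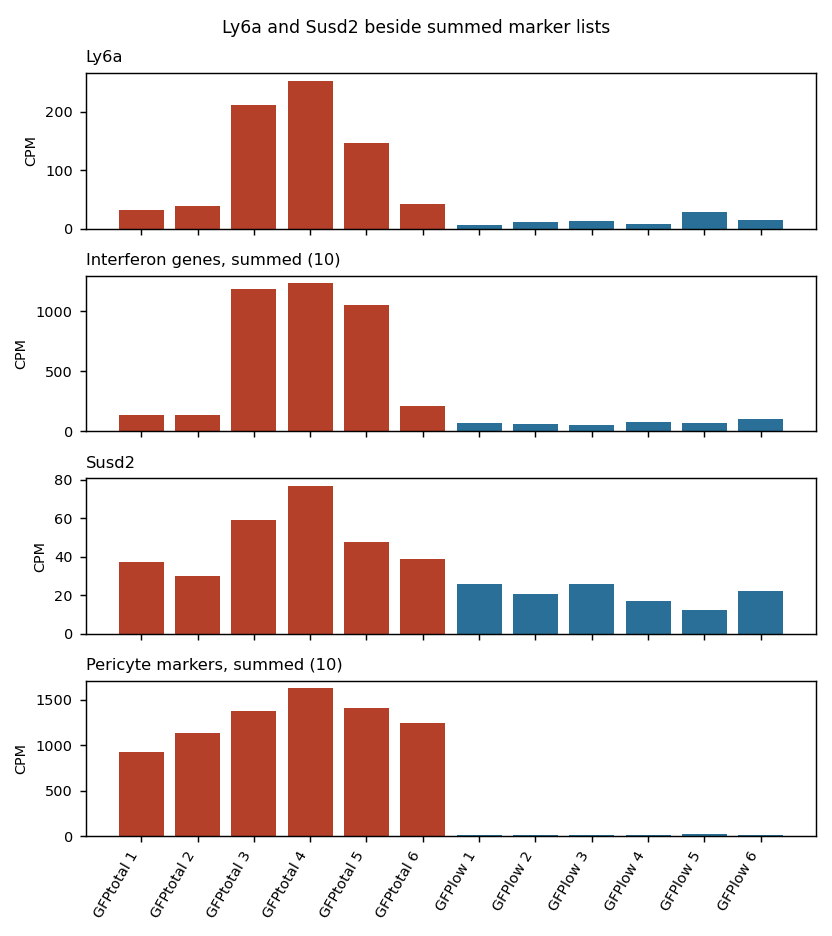
CPM (y axes, from 0) of Ly6a, of 10 interferon-response genes summed, of Susd2 and of 10 pericyte markers summed in each library (x axis; GFPtotal in red, GFPlow in blue). Ly6a and the interferon genes are highest in GFPtotal 3, 4 and 5 (Ly6a at 147 to 253 CPM there and 32.0 to 41.9 CPM in GFPtotal 1, 2 and 6), while the pericyte sum, mostly Rgs5 and Abcc9, is high in all GFPtotal libraries.

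The genes closest to Ly6a over the 12 libraries were Mndal and Sp100, both interferon-inducible nuclear proteins, and Ctla2a, a cysteine protease inhibitor gene. Their root mean square differences were 0.48, 0.49 and 0.50 log2 units, where the deviation of Ly6a from its own mean was 1.71. Mndal stood at 572 ± 479 CPM in GFPtotal, against 68.3 ± 24.5 CPM in GFPlow (SD, n = 6 each), with a log2 fold change of 3.07 (edgeR adjusted p = 0.00842). Mndal stayed called without GFPtotal 3, 4 and 5 at 1.40 (edgeR adjusted p = 0.00290), whereas Sp100 (0.78, adjusted p = 0.308) and Ctla2a (0.53, adjusted p = 0.570) did not. Sp100 and Ctla2a had log2 fold changes of 2.26 (edgeR adjusted p = 0.0245) and 3.19 (adjusted p = 0.0348) with all libraries.

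Of the 9 other Ly6 genes found in the table, 2 could be tested and both were higher, Ly6c1 and Ly6e, where 4.55% of all genes tested were higher. Ly6c1 had 0.928, 1.38, 3.72, 5.22, 4.99 and 1.51 CPM in GFPtotal 1 to 6 and at most 0.271 CPM in GFPlow, with 0 counts in GFPlow 1 and 3 and 11 counts in GFPlow in all (log2 fold change 4.68, SE 0.84, edgeR adjusted p = 0.00302). Its groups did not overlap. The level of Ly6c1 is uncertain too, since 195 of the Ly6a stretches described above were also found in it. Ly6c1 had 258 counts in GFPtotal and 11 in GFPlow, where Ly6a had 10641 and 1315. Whether reads of Ly6a were counted as Ly6c1 was not tested. Ly6e, a more distant relative, stood at 21.2, 14.2, 95.1, 168, 86.5 and 28.2 CPM in GFPtotal 1 to 6 and at 7.67 to 22.1 CPM in GFPlow (log2 fold change 2.22, SE 0.56, edgeR adjusted p = 0.0358). The Ly6e groups overlapped in GFPtotal 1 and 2. As with Ly6a, GFPtotal 3, 4 and 5 were the highest libraries for both genes. Without them neither was called: Ly6c1 differed by 3.45 (edgeR adjusted p = 0.176) and Ly6e by 0.50 (adjusted p = 0.631). The Ly6e call was lost in 14 of 22 alternative fits.

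Thy1 (ENSMUSG00000032011, chromosome 9, 44043384 to 44048579, plus strand), a GPI-anchored glycoprotein of fibroblasts and other cells, was well expressed in both groups. Its level was 25.8, 19.4, 16.2, 19.2, 13.5 and 37.5 CPM in GFPtotal 1 to 6, against 20.4, 34.0, 31.7, 28.4, 13.0 and 43.2 CPM in GFPlow 1 to 6. The groups overlapped over nearly their whole range, with GFPlow 6 the highest library and GFPlow 5 the lowest. The log2 fold change of −0.38 (SE 0.30, 95% interval −1.0 to 0.25, edgeR adjusted p = 0.533) did not pass the test, and it was −0.22 without GFPlow 6 and −0.06 without GFPtotal 3, 4 and 5. The nearest genes over the libraries were H13, Sod2 and Gpr107, at differences of 0.24, 0.25 and 0.27 log2 units.

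Eng (ENSMUSG00000026814, chromosome 2, 32646595 to 32682669, plus strand) encodes endoglin, a co-receptor for TGF-beta family ligands that is abundant on endothelium. It stood at 34.3, 22.8, 11.1, 10.5, 6.32 and 22.4 CPM in GFPtotal 1 to 6, against 14.7, 33.3, 34.0, 27.0, 14.7 and 21.0 CPM in GFPlow 1 to 6. GFPtotal 3, 4 and 5 were the lowest 3 libraries of all 12, below the 14.7 CPM of the lowest GFPlow libraries, while GFPtotal 1 was the highest. Its log2 fold change was −0.43 (SE 0.37, 95% interval −1.21 to 0.34, edgeR adjusted p = 0.570), and it turned to 0.11 (adjusted p = 0.939) without GFPtotal 3, 4 and 5. An antisense gene, Fpgs, shares 1.5% of the exonic bases of Eng, and counting did not use strand. The nearest genes were Calu, Slc9a9 and Meg3, at differences of 0.25, 0.26 and 0.27 log2 units.

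Nt5e (ENSMUSG00000032420, chromosome 9, 88327197 to 88372092, plus strand), the GPI-anchored 5′-nucleotidase that makes adenosine outside cells, was scarce. It had 15, 43, 44, 81, 26 and 32 counts in GFPtotal 1 to 6 and 64, 32, 8, 48, 1 and 0 counts in GFPlow 1 to 6. The 0 in GFPlow 6 allows up to 3 counts, or 0.16 CPM. On the CPM scale GFPtotal held 1.16 to 4.97 and GFPlow 0 to 4.05, so GFPlow 3, 5 and 6 lay below every GFPtotal library and GFPlow 1, 2 and 4 lay within the GFPtotal range. The log2 fold change of 0.90 had a 95% interval of −0.89 to 2.69 (SE 0.85, edgeR adjusted p = 0.618) and was 0.63 without GFPlow 6 and 1.45 without GFPlow 1.

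Cd44 (ENSMUSG00000005087, chromosome 2, 102811141 to 102901665, minus strand), the hyaluronan receptor, was at 46.2, 36.6, 21.9, 29.6, 20.5 and 43.9 CPM in GFPtotal 1 to 6, against 99.2, 28.4, 30.7, 20.1, 16.4 and 19.5 CPM in GFPlow 1 to 6. GFPlow 1 was the highest library of all 12 by far, and the remaining GFPlow libraries lay at 16.4 to 30.7 CPM. A log2 fold change of −0.11 resulted (SE 0.41, 95% interval −0.98 to 0.76, edgeR adjusted p = 0.920), and one of 0.52 (adjusted p = 0.296) without GFPlow 1. The sign also turned in 4 other fits, among them limma-voom (0.12) and that without GFPtotal 3, 4 and 5 (0.22).

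Alcam (ENSMUSG00000022636, chromosome 16, 52248996 to 52454074, minus strand), an adhesion molecule of the immunoglobulin superfamily, was at 19.95, 13.4, 10.4, 24.4, 14.9 and 12.1 CPM in GFPtotal 1 to 6, against 10.1, 19.0, 9.998, 9.15, 18.2 and 0.706 CPM in GFPlow 1 to 6. GFPlow 6 stood far below all others, with 13 counts where the rest had 136 to 397. The log2 fold change of 0.50 (SE 0.49, 95% interval −0.53 to 1.54, edgeR adjusted p = 0.628) was 0.25 without GFPlow 6.

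Nes (ENSMUSG00000004891, chromosome 3, 87971078 to 87980451, plus strand), an intermediate filament gene and not a surface protein, was at 17.1, 30.2, 5.72, 7.98, 13.0 and 19.1 CPM in GFPtotal 1 to 6, against 6.83, 9.15, 11.6, 10.3, 2.98 and 23.2 CPM in GFPlow 1 to 6. GFPlow 6 was the highest GFPlow library and exceeded 5 of the GFPtotal libraries. The log2 fold change was 0.54 (SE 0.45, 95% interval −0.41 to 1.48, edgeR adjusted p = 0.563). It was 0.92 without GFPlow 6 and 1.03 without GFPtotal 3, 4 and 5, neither of which passed (adjusted p = 0.284 and 0.353). With both sets left out, an alternative added after seeing the data, it was 1.41 (edgeR adjusted p = 0.0995).

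Lepr (ENSMUSG00000057722, chromosome 4, 101717404 to 101815352, plus strand), the leptin receptor gene, which marks perivascular stromal cells of mouse bone marrow, was scarce and the most uneven of the markers. It had 19, 1, 70, 75, 38 and 49 counts in GFPtotal 1 to 6 and 99, 0, 2, 1, 11 and 1 counts in GFPlow 1 to 6, where the 0 allows up to 0.17 CPM. GFPlow 1 alone held most of the GFPlow counts and GFPtotal 2 lacked nearly all. The log2 fold change was 1.31 with a 95% interval of −1.16 to 3.78 (SE 1.16, edgeR adjusted p = 0.592). Without GFPlow 1 it was 3.86 and passed the test (adjusted p = 0.0466), in a fit in which 4.58% of genes were called higher. Lepr was not called in the other 21 of the 22 alternative fits. Its value fell to 0.68 without GFPtotal 3, 4 and 5 (edgeR adjusted p = 0.913), and to 0.43 without GFPlow 6 as well (adjusted p = 0.958).

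**Figure D3:**
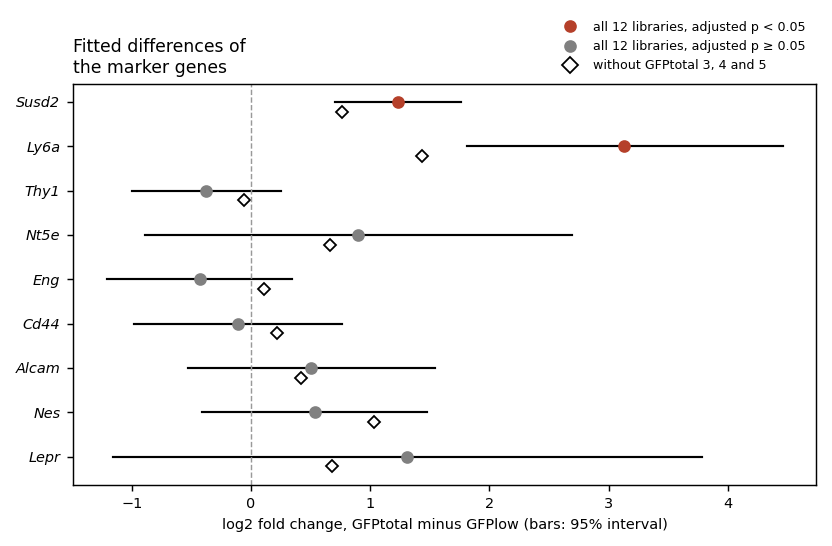
Fitted log2 fold change of each marker, GFPtotal minus GFPlow (x axis; circles, with 95% intervals as bars, n = 6 each), and the same without GFPtotal 3, 4 and 5 (diamonds). Only the intervals of Susd2 (0.70 to 1.76) and Ly6a (1.81 to 4.46) lie wholly above 0, and both diamonds of these genes lie lower, at 0.76 and 1.43.

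Over the libraries, the genes nearest to the last 5 markers lay farther off, in log2 units, than those of Susd2, Thy1 and Eng. So did those of Ly6a, from 0.48. This does not allow for the deviation of each marker from its own mean. That was 0.55 for Thy1, 0.73 for Susd2 and 0.74 for Eng, against 0.69 for Cd44, 0.88 for Nes, 1.21 for Alcam, 1.64 for Nt5e and 2.11 for Lepr. The genes nearest to Cd44 were Dhx29, Maoa and Hmgn5 (0.41 to 0.43 log2 units). For Nes they were Ralb, Itpripl2 and Prc1 (0.40 to 0.52), and for Alcam Traf5, Zfp111 and Slc22a15 (0.60 to 0.82). For Nt5e they were Kif15, Dgke and Serpine2 (1.03 to 1.06), and for Lepr Pdzrn3, Ccdc141 and Pappa (1.25 to 1.26). The scarce genes carry more counting error in each library, which this measure includes.

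Per exon length, in CPM per kilobase of exons (RPKM), Ly6a was the most abundant of the markers in GFPtotal at 100.04 ± 80.6 RPKM, followed by Susd2 at 14.8 ± 5.29 and Thy1 at 12.6 ± 4.99 RPKM (SD, n = 6 each). Cd44 stood at 4.89, Eng at 4.42, Nes at 2.42, Alcam at 2.22, Lepr at 0.427 and Nt5e at 0.344 RPKM. Between neighbours in this order the ranges over libraries were separate for Ly6a and Susd2, for Thy1 and Cd44 and for Alcam and Lepr, and overlapped for the others. In GFPlow, Thy1 led at 16.4 ± 6.12 RPKM, before Ly6a at 11.4 ± 6.60 and Susd2 at 6.32 ± 1.64 RPKM (SD, n = 6 each). Eng was at 5.96, Cd44 at 5.27, Nes at 1.66, Alcam at 1.57, Nt5e at 0.184 and Lepr at 0.173 RPKM there, and the ranges of all neighbours overlapped. Among genes tested, Ly6a lay above 99.2% in GFPtotal and 83.2% in GFPlow, while Nt5e lay above 4.8% in GFPtotal and 2.8% in GFPlow.

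**Figure D4:**
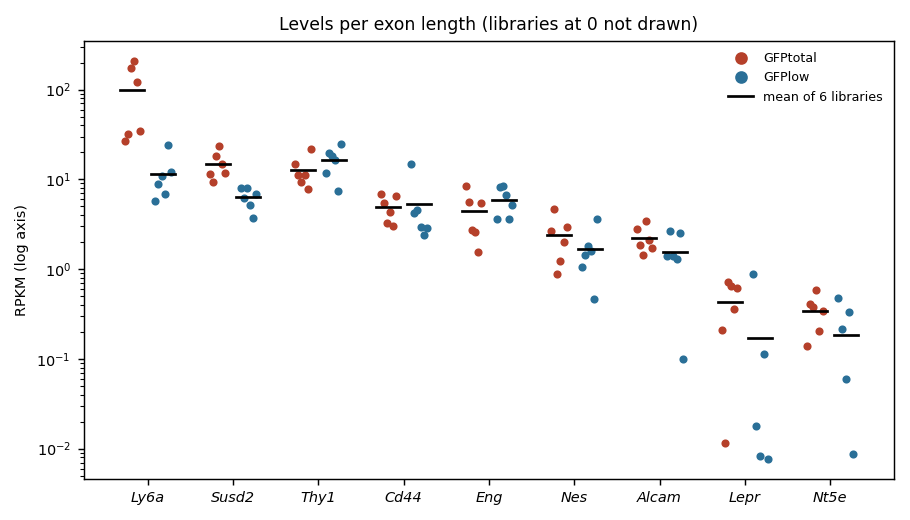
RPKM of each marker in each library (y axis, log scale; GFPtotal in red, GFPlow in blue, black bars are means of 6 libraries), in the order of the GFPtotal mean; libraries at 0 are not drawn. Ly6a, Susd2 and Thy1 average above 6 RPKM in both groups, and Lepr and Nt5e stay under 1 RPKM in every library.

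A part of the other genes used to mark mesenchymal stem or stromal cells was also higher in GFPtotal. Of 24 such genes, 23 could be tested, 8 were higher and 1 lower, where 4.55% of all genes tested were higher and 0.854% lower. The list was chosen with earlier results of these data known, and the 8 include Pdgfrb, whose reporter set the sort. The count can therefore not be read as an independent result. The median log2 fold change of the 23 was 0.31. The lower one was Gli1, a hedgehog pathway transcription factor gene (log2 fold change −1.79, edgeR adjusted p = 0.0349). The 4 with the largest change were Itga4, Mcam, Cspg4 and Vcam1, of which Mcam and Cspg4 are also among the 10 pericyte markers summed above. Mcam (CD146), an adhesion molecule of perivascular cells that is used with PDGFRB to sort human endometrial stem cells, stood at 7.12, 4.62, 10.01, 13.2, 11.0 and 4.90 CPM in GFPtotal 1 to 6 and at 0.0565 to 0.885 CPM in GFPlow (log2 fold change 4.30, SE 0.55, edgeR adjusted p = 0.000209). Itga4, the alpha-4 integrin, was at 68.5 ± 29.2 CPM in GFPtotal, against 3.09 ± 3.11 CPM in GFPlow (± SD of 6 libraries each; log2 fold change 4.47, SE 0.61, edgeR adjusted p = 0.000877). Its ligand gene Vcam1 differed by 3.08 (SE 0.45, adjusted p = 0.000652) and the pericyte proteoglycan gene Cspg4 by 4.05 (SE 0.73, adjusted p = 0.00324). The groups did not overlap for any of these 4 genes, and all 4 kept their calls without GFPtotal 3, 4 and 5, at log2 fold changes of 4.82 for Itga4, 3.66 for Mcam, 3.68 for Cspg4 and 3.31 for Vcam1 (highest edgeR adjusted p = 0.0390). With GFPlow 6 left out as well, Cspg4 missed the threshold (3.57, edgeR adjusted p = 0.0718). Pdgfrb, whose reporter set the sort, was at 114 ± 36.0 CPM in GFPtotal, against 65.1 ± 15.0 CPM in GFPlow (± SD of 6 libraries each; log2 fold change 0.81, edgeR adjusted p = 0.0305).

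Genes whose absence is part of the usual definition were at or near 0. Of 8 such genes, which mark blood cells, only Itgam could be tested, at 0.753 ± 0.477 CPM in GFPtotal, against 1.56 ± 2.23 CPM in GFPlow (± SD of 6 libraries each; log2 fold change −1.04, edgeR adjusted p = 0.633). The 8 summed to 1.21 to 2.93 CPM in GFPtotal, against 1.25 to 6.55 CPM in GFPlow. Another gene shares 68.7% of the exonic bases of Itgam. The hematopoietic marker Cd34, which human definitions list as absent, was abundant in both groups at 133 ± 28.9 CPM in GFPtotal, against 186 ± 43.8 CPM in GFPlow (± SD of 6 libraries each; log2 fold change −0.49, edgeR adjusted p = 0.165).

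Few of the genes that act with the markers were called. Few were called among all genes tested too, at 4.55% higher and 0.854% lower. Around Nt5e, 0 of 6 tested genes of ATP breakdown and adenosine handling were called in either direction (median log2 fold change 0.81). Entpd1 (CD39), which makes the substrate of Nt5e, stood at 73.0 ± 32.5 CPM in GFPtotal, against 106 ± 37.4 CPM in GFPlow, and the adenosine kinase gene Adk at 11.9 ± 1.99 CPM in GFPtotal cells and 7.89 ± 4.77 CPM in GFPlow cells (SD, n = 6 each). Neither passed (log2 fold changes −0.53 and 0.60, edgeR adjusted p = 0.375 and 0.398). Around Eng, 0 of 13 TGF-beta and BMP signalling genes were called (median 0.19). The BMP receptor gene Bmpr2 stood at 1036 ± 202 CPM in GFPtotal, against 894 ± 172 CPM in GFPlow, and the TGF-beta receptor gene Tgfbr2 at 371 ± 140 CPM in GFPtotal cells and 224 ± 42.5 CPM in GFPlow cells (SD, n = 6 each). Tgfbr2 missed the threshold (log2 fold change 0.72, edgeR adjusted p = 0.0588) and passed it in 5 of 22 alternative fits, among them DESeq2 (adjusted p = 0.0446).

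Around Cd44, 0 of 12 hyaluronan and cortical linker genes were called (median 0.03), with Vcan at 1446 ± 439 CPM in GFPtotal, against 1295 ± 305 CPM in GFPlow, and the linker gene Msn at 256 ± 80.0 CPM in GFPtotal cells and 346 ± 85.4 CPM in GFPlow cells (SD, n = 6 each). At an unadjusted edgeR p below 0.05, 1 gene was higher and 0 lower around Nt5e, 2 were higher and 1 lower around Eng, and 2 were higher and 1 lower around Cd44, where 12.8% of all genes tested were higher and 7.07% lower. At an adjusted p below 0.05, DESeq2 called 0 genes around Nt5e and Cd44 and 1 higher around Eng, and limma-voom called 0 around Nt5e and Eng and 1 lower around Cd44. Around Lepr, 1 of 7 tested genes was higher and 0 lower (median 0.26). This was the insulin receptor substrate gene Irs2, at 3.02, 8.74, 35.0, 32.4, 37.1 and 11.1 CPM in GFPtotal 1 to 6 and 2.94 to 5.60 CPM in GFPlow (log2 fold change 2.33, SE 0.50, edgeR adjusted p = 0.0105). GFPtotal 3, 4 and 5 were the highest libraries here too, and Irs2 was not called without them (0.83, adjusted p = 0.529) or with limma-voom (1.98, adjusted p = 0.0702).

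Among 7 tested partners of Thy1, Alcam and Nes, 0 were higher and 2 lower (median −0.14), where 4.55% of all genes tested were higher and 0.854% lower. Itgb3, the beta-3 integrin that pairs with alpha-v to bind Thy1, was at 133 ± 70.5 CPM in GFPtotal, against 325 ± 78.3 CPM in GFPlow (± SD of 6 libraries each; log2 fold change −1.29, SE 0.33, edgeR adjusted p = 0.0348). Sdc4, the syndecan that also takes part in Thy1 binding, was at 19.6 ± 7.35 CPM in GFPtotal, against 44.0 ± 19.8 CPM in GFPlow (log2 fold change −1.16, SE 0.32, edgeR adjusted p = 0.0388). The alpha-v gene Itgav had a log2 fold change of −0.14 that did not pass (edgeR adjusted p = 0.770). Both calls were fragile: Itgb3 lost its call in 9 and Sdc4 in 11 of 22 alternative fits, with log2 fold changes of −1.49 to −0.65 and −1.32 to −0.89. Without GFPtotal 3, 4 and 5 they were −0.75 (edgeR adjusted p = 0.0520) and −1.11 (adjusted p = 0.183).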

How the data were processed

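The deposited files hold raw counts, 1 whole number for each gene and library. As their headers record, the authors ran featureCounts 1.6.4 on Ensembl release 84 (GRCm38), counting paired-end fragments over exons without strand, at a mapping quality of at least 10. The submitters' processing notes also name cutadapt and SAMtools. The aligner was not given in the sources used here. The series table equalled the single files in 12 of 12 libraries. Symbols were matched by identifier for 47224 of 47729 genes.

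Genes were kept by edgeR's filterByExpr (14523 genes, all 9 markers among them), scaled by TMM factors and tested with edgeR 4.0.16's quasi-likelihood F test (R 4.3.3), GFPtotal minus GFPlow, no covariate, adjusted by Benjamini-Hochberg over all genes at 0.05. SE was taken as the log2 fold change over the root of its F value. CPM and RPKM were computed here from the counts on TMM-scaled library sizes and the files' exon lengths; log2 CPM used a prior count of 2. Alternatives used DESeq2 1.42.0, limma 3.58.1 (voom), other scaling and filters, a replicate block and left-out libraries. Replicate pairs of a group differed beyond counting noise (chi-square per degree of freedom of at least 19.5). Intervals on zero counts (3 counts) cover counting error only. The fits were tested on simulated data.

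The markers and lists were chosen with earlier results of these data known. Named besides the 9 markers are the 3 genes nearest to each (mean log2 CPM of at least 3, predicted genes left out) and, per related list, up to 4 called genes of largest change or else the 2 most abundant. Pdgfrb, Gli1, Cd34, Itgav and the other Ly6 genes were named after their values were seen.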

Additional observations from a re-analysis of the deposited data

Results flagged for a closer look

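A library standing apart from the other 5 of its group, by the gap to its neighbour over the range of the group, was seen in 3 of 18 groups of 6 examined. The threshold is passed in about 1 in 20 groups of normally distributed values. CPM values need not be so distributed, and the 18 groups come from the same 12 libraries. The count of 3 can therefore not be set against that rate. Cd44 was at 99.2 CPM in GFPlow 1, against 16.4 to 30.7 CPM in the other GFPlow libraries. Lepr was at 6.26 CPM in the same library, against 0 to 0.800 CPM in the others. Ly6a was at 28.9 CPM in GFPlow 5, against 6.89 to 14.6 CPM in the others, and its log2 fold change without that library was 3.48 (edgeR adjusted p = 0.00833).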

How the results depend on the processing

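Over 22 alternative fits, Susd2 (log2 fold change 0.76 to 1.33) and Ly6a (1.43 to 3.48) kept their direction in all and their calls in 20. Both calls were lost without GFPtotal 3, 4 and 5, alone or with GFPlow 6, where 0 markers were called higher. Leaving out 1 library gave 2 to 3 markers higher. Signs of uncalled genes turned in a few fits, and the cause was not tested. Eng was 0.11 without GFPtotal 3, 4 and 5 and 0.08 without these and GFPlow 6, where Thy1 was 0.09. Cd44 was 0.22 and 0.09 in the same 2 fits, 0.12 with limma-voom and −0.26 to 0.52 with 1 library left out (0.52 without GFPlow 1). Itgam was 0.72 with limma-voom and −1.31 to 0.09 with 1 library left out (0.09 without GFPlow 5).

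Over all genes, 661 were higher and 124 lower. DESeq2 gave 1033 and 348, limma-voom 273 lower, and total library size 257 lower. Without GFPtotal 3, 4 and 5 the counts were 245 and 50, and 243 and 43 without GFPlow 6 as well; leaving out 1 library gave 406 to 791 higher and 61 to 179 lower. Of the genes in the related lists, 11 were higher and 3 lower; total library size gave 7 higher, the fit without GFPtotal 3, 4 and 5 gave 5 higher and 0 lower, and that also without GFPlow 6 gave 3 and 0. Leaving out 1 library gave 7 to 12 higher and 0 to 3 lower.

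Groups share replicate numbers, but same-numbered libraries correlated at −0.139 to 0.089 and 2 of 6 were closest to their own number, so they were not treated as pairs. With a replicate block, 2 markers were higher and 0 lower, 492 and 90 of all genes, and 8 and 3 of the related lists. Cd44 was then 0.14 and Itgam 0.06, both with the sign turned, and Ly6e was not called (1.74, edgeR adjusted p = 0.244). The values of Nt5e and Lepr rest on 0 to 99 counts a library.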
